A study of Homo sapiens with 4 samples.

Results

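The genes described here are 10 genes of the NF-kB pathway. They were listed by symbol, and earlier results of these data were known when they were chosen. The NF-kB subunit genes are NFKB1, NFKB2, RELA, RELB and REL. The feedback inhibitor genes are NFKBIA, NFKBIE and TNFAIP3, and the cellular IAP genes are BIRC2 and BIRC3. All 10 were found among the 57773 genes listed, and all 10 had enough counts to be tested. Polyadenylated RNA was sequenced from MIA-PaCa2, an established human pancreatic cancer cell line. The untreated group was 2 libraries of these cells in DMEM with fetal calf serum. The AMG510-resistant group was 2 libraries of cells of the same line, which had been kept for 2 months in rising doses of AMG510 and reached a final dose of 5 µM. AMG510 (sotorasib) is a cancer drug under which signalling through RAF, MEK and ERK is lowered. The design text describes each group as 2 populations of 1 line, and the labels do not say whether the drug was present at harvest. One label of resistant replicate 2, its treatment tag, spells the drug AMG511, but AMG510 stands in the title, and the library was counted as resistant.

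NF-kB transcription factors are dimers of the subunits listed above. In resting cells IkB proteins hold them in the cytoplasm, until a receptor signal activates the IKK kinase complex, which marks IkB for destruction and releases the dimers into the nucleus. Among the genes they switch on are their own inhibitors and the cellular IAP proteins, ubiquitin ligases that attach chains to signalling proteins at the tumour necrosis factor receptor and restrain cell death. In a slower branch, the kinase NIK (gene MAP3K14) drives the processing of the NFKB2 protein, which then pairs with RELB, and the cellular IAP proteins keep NIK low. In pancreatic cancer, NF-kB is known for supporting survival and the release of cytokines.

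Expected counts summed to between 30146559 and 38052558 per library, and the 10 genes had between 80 and 3349 counts in each. Values are read counts scaled to library size (CPM) with TMM factors, with mean ± SD over n = 2 libraries. Fold changes are log2 of resistant over untreated with a standard error (SE), and the word called means that edgeR's quasi-likelihood test gave an adjusted p (Benjamini-Hochberg, over 16090 tested genes) of less than 0.05. The design text describes 2 populations per group, but the labels do not say that replicates were cultured apart. The p-values thus rest on a spread between libraries that may be technical. In bulk RNA, fewer expressing cells and less RNA per cell cannot be told apart. Of 8 tested marker genes of this line and of epithelial tumour cells, 3 were lower, KRT8 and KRT18 among them. VIM lay between 5575 and 7906 CPM and KRT8 between 962 and 3091 CPM. CDKN2A had 0 counts in all 4 libraries, and MTAP had 1 count over all 4. A count of 0 allows up to 3 counts, or 0.0801 to 0.104 CPM by library. Of the blood cell markers, PTPRC, CD3E and TYROBP were at or below 0.138 CPM in every library, and the 8 blood markers summed to between 11.4 and 35.9 CPM, with overlap. Of 3 tested blood markers 2 were lower, CD14 (from 6.06 ± 0.0369 to 1.63 ± 0.162 CPM) and HBA1 (from 1.02 ± 0.0282 to 0.232 ± 0.160 CPM), and 0 higher. CD68 did not pass and lay between 9.39 and 33.7 CPM, highest in resistant replicate 1. The fibroblast markers summed to 22.9 and 26.8 CPM in untreated and to 114 and 75.2 CPM in resistant libraries. Of 4 tested fibroblast markers 2 were higher (COL3A1 and PDGFRB), while DCN, LUM, FAP and THY1 were at or below 0.190 CPM in every library. These counts of markers stand beside 16.6% called higher and 17.4% called lower over all tested genes. The part of these markers in the results was not tested.

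RELA, RELB, BIRC2 and BIRC3 were higher in resistant cells, by 1.94-fold (BIRC2) to 3.04-fold (RELB), and none of the 10 genes was called lower. The other 6 did not pass: NFKB1, NFKB2, REL and all 3 inhibitors. Across all tested genes 34.0% were called, 16.6% as higher and 17.4% as lower. The 4 of 10 called here (40%) stand beside that share, and all 4 are in 1 direction. Without untreated replicate 1 the share over all genes was 16.9% (2832 of 16793), and 3 of the 10 were called. The median log2 fold change was 0.55 over the 10 genes and −0.01 over all tested genes. The groups did not overlap in 8 of the 10 genes, beside 70.9% of all tested genes.

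**Figure D1:**
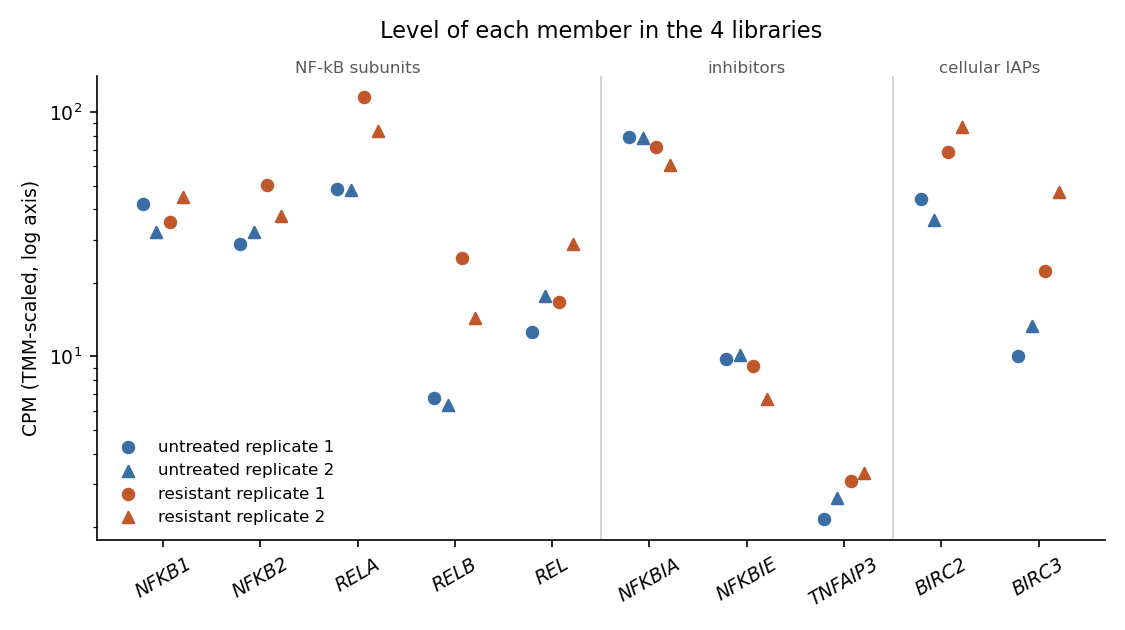
CPM of each of the 10 genes (horizontal axis) in each of the 4 libraries, on a log axis. Circles are replicate 1 and triangles replicate 2, blue untreated and orange resistant. For RELA, RELB, BIRC2 and BIRC3 both resistant libraries lie above both untreated ones, for NFKB1 and REL the groups overlap, and for NFKBIA and NFKBIE both resistant libraries lie below.

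RELA encodes the subunit with a strong activation domain that is found in most NF-kB dimers of the fast branch. Its level (ENSG00000173039, chromosome 11) was 48.3 and 48.0 CPM in untreated replicates 1 and 2, and 116 and 84.0 CPM in resistant replicates 1 and 2. Both resistant libraries stood above both untreated ones, which lay within 1 CPM of each other. RELA rose from 48.1 ± 0.233 CPM to 99.8 ± 22.3 CPM, a log2 fold change of 1.05 (SE 0.18, edgeR adjusted p = 0.00186).

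RELB encodes the activating subunit of the slower branch. RELB (ENSG00000104856, chromosome 19) was at 6.74 and 6.30 CPM in untreated and at 25.3 and 14.4 CPM in resistant replicates 1 and 2. The groups did not overlap, and resistant replicate 1 was the higher of the resistant libraries, as for RELA. The rise from 6.52 ± 0.310 CPM to 19.8 ± 7.73 CPM had a log2 fold change of 1.60 (SE 0.29, edgeR adjusted p = 0.00254). Among the 10 genes it was the one with the greatest estimate, though BIRC3 was within 1 SE of it.

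NFKB2, whose product is the partner of RELB after processing, stood at 29 and 32.4 CPM in untreated and at 50.3 and 37.7 CPM in resistant replicates 1 and 2. The groups did not overlap, but the difference did not pass (log2 fold change 0.52, SE 0.19, edgeR adjusted p = 0.0569). The value is near the threshold, and it fell below it with RLE scaling (adjusted p = 0.0498), without a filter (0.0316), with a stricter filter (0.0419) and without resistant replicate 2 (0.0125), in a range of 0.0125 to 0.370 over all alternatives. RELB stood at 0.233 and 0.195 times the CPM of NFKB2 in untreated replicates 1 and 2 and at 0.502 and 0.381 times in resistant ones.

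NFKB1, the precursor of the usual partner of RELA, was at 42.1 and 32.5 CPM in untreated and at 35.5 and 45.0 CPM in resistant replicates 1 and 2. The groups overlapped, and the log2 fold change was 0.11 (SE 0.20, edgeR adjusted p = 0.70). Its sign turned without untreated replicate 2 (−0.08) or without resistant replicate 2 (−0.07). REL, the subunit best known from lymphocytes, was at 12.6 and 17.7 CPM in untreated and at 16.7 and 28.9 CPM in resistant replicates 1 and 2. The groups overlapped, with resistant replicate 1 below untreated replicate 2. The log2 fold change of REL was 0.59 (SE 0.29, edgeR adjusted p = 0.143). It passed without resistant replicate 1 (0.95, adjusted p = 0.00409) and without a filter (adjusted p = 0.0408), and was 0.14 without resistant replicate 2 (adjusted p = 0.770, the highest over its alternatives). REL is the uncertain member of the 10. It shares 5702 exon bases on the same strand with an annotated non-coding gene, AC010733.2, which had between 173 and 236 counts per library, and REL alone among the 10 had counts that were not whole numbers.

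None of the inhibitor genes passed. NFKBIA encodes IkBa, the inhibitor that captures RELA dimers and is remade within a cycle of activation. NFKBIA was at 79.5 and 78.4 CPM in untreated and at 71.9 and 60.6 CPM in resistant replicates 1 and 2. Both resistant values lay below both untreated ones, and the log2 fold change was −0.25 (SE 0.16, edgeR adjusted p = 0.243). NFKBIE encodes a related inhibitor, IkBe. NFKBIE was at 9.80 and 10.2 CPM in untreated and at 9.18 and 6.72 CPM in resistant replicates 1 and 2 (log2 fold change −0.33, SE 0.27, edgeR adjusted p = 0.372). Both resistant libraries of NFKBIE were again the lower ones, replicate 2 the lowest. TNFAIP3 encodes A20, a ubiquitin-editing enzyme that shuts off signalling above IKK. TNFAIP3 was at 2.17 and 2.64 CPM in untreated and at 3.11 and 3.35 CPM in resistant replicates 1 and 2, without overlap, in the opposite order to the IkB genes (log2 fold change 0.42, SE 0.37, edgeR adjusted p = 0.408). TNFAIP3 had 80 to 113 counts per library, the fewest of the 10, and its SE was the widest. Set against its inhibitor, RELA stood at 0.608 and 0.611 times the CPM of NFKBIA in untreated replicates 1 and 2, and at 1.61 and 1.39 times in resistant ones. These ratios are not scaled for gene length. Per kilobase of annotated exon NFKBIA stood above RELA in every library. In resistant replicates 1 and 2 it was at 30.3 and 25.53 CPM per kilobase, against 21.15 and 15.37 for RELA.

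Both cellular IAP genes were higher. BIRC2 encodes cIAP1, the family member present in most cell types. BIRC2 (ENSG00000110330, chromosome 11) was at 44.2 and 36.1 CPM in untreated and at 68.7 and 87.3 CPM in resistant replicates 1 and 2. The groups did not overlap, and resistant replicate 2 was the higher one. BIRC2 rose from 40.2 ± 5.75 CPM to 78.0 ± 13.2 CPM, a log2 fold change of 0.96 (SE 0.18, edgeR adjusted p = 0.00304). BIRC3 encodes cIAP2, a textbook NF-kB target that cells make more of when the pathway is on. BIRC3 (ENSG00000023445, chromosome 11) was at 10.0 and 13.4 CPM in untreated and at 22.4 and 47.0 CPM in resistant replicates 1 and 2. The groups did not overlap, and resistant replicate 2 had 2.10 times the level of resistant replicate 1. The rise from 11.7 ± 2.36 CPM to 34.7 ± 17.4 CPM had a log2 fold change of 1.57 (SE 0.35, edgeR adjusted p = 0.0115). This call was the least secure of the 4. It ended without untreated replicate 1 (adjusted p = 0.159) and without untreated replicate 2 (0.0683), in a range of 2.40e-13 to 0.159 over the alternatives, and its log2 fold change moved to 0.93 when resistant replicate 2 was left out and to 2.02 when replicate 1 was. BIRC3 stood at 0.227 and 0.371 times the CPM of BIRC2 in untreated replicates 1 and 2, and at 0.326 and 0.538 times in resistant ones, so the ratios of the groups overlapped.

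**Figure D2:**
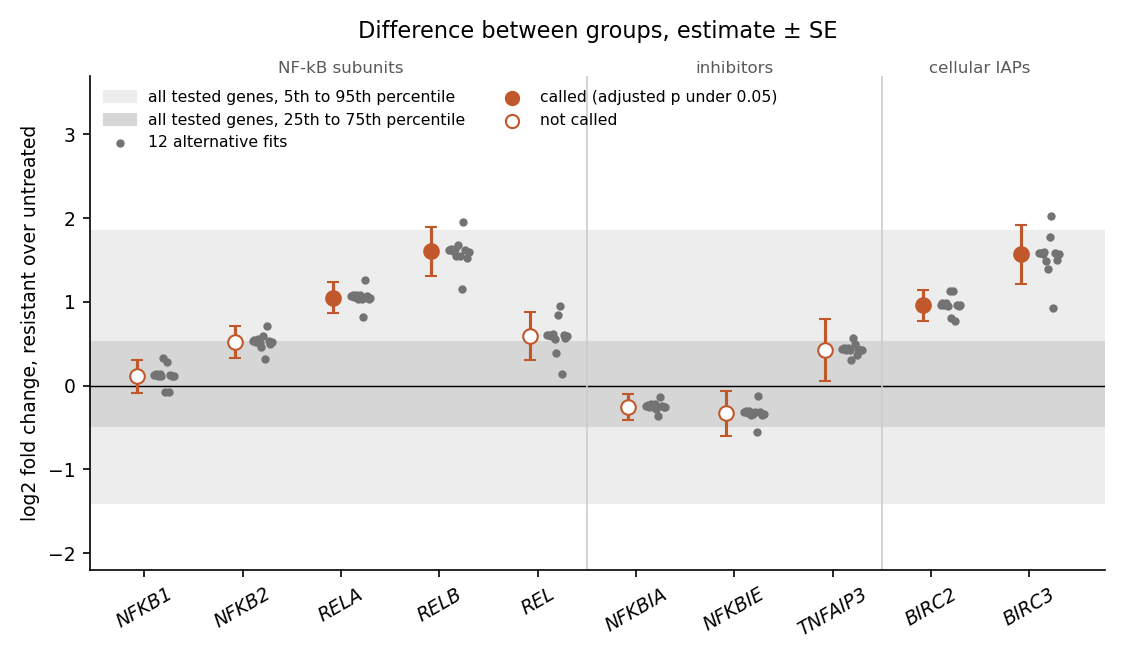
Log2 fold change of resistant over untreated for each of the 10 genes, with SE as error bar, filled where called and open where not. Small dots are the 12 alternative fits, and the bands are percentiles of all tested genes, from −0.49 to 0.52 for the inner and from −1.40 to 1.85 for the outer band. The 4 called genes lie above the inner band in every fit, and all 10 estimates lie within the outer band.

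For BIRC2 and BIRC3, which lie next to each other on chromosome 11, and for NFKBIA and TNFAIP3, the sequence around the gene start is shown, because the NF-kB binding motif (the kB motif) is found beside a gene that rose and beside genes that did not pass. Each window runs from 250 bases before to 50 bases after the gene start, read 5′ to 3′ along the gene, from RefSeq on GRCh38.p14, a build other than that of the counts. Capitals mark matches to the kB motif on either strand. For BIRC2 the first of 2 listed starts is given.
BIRC3, chr11:102317234-102317533, plus strand: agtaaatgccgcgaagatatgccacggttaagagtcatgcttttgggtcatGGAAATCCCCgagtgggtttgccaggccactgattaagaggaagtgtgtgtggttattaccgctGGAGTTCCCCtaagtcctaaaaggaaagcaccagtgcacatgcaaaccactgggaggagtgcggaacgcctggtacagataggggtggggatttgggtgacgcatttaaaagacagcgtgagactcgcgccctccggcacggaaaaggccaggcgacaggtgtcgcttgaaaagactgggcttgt
BIRC2, chr11:102346964-102347263, plus strand: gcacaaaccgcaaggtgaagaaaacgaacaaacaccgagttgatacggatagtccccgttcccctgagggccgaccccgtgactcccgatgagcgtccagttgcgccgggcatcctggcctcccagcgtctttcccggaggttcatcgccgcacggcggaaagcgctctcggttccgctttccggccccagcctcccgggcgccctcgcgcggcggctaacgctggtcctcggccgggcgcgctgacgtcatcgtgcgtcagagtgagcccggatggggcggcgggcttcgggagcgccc
NFKBIA, chr14:35404700-35404999, minus strand: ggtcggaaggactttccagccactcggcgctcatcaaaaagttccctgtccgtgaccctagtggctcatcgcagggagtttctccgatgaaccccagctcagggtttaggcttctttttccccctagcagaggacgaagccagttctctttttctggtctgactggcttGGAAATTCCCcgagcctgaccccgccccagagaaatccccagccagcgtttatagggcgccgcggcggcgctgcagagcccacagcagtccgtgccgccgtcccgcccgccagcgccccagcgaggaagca
TNFAIP3, chr6:137867009-137867308, plus strand: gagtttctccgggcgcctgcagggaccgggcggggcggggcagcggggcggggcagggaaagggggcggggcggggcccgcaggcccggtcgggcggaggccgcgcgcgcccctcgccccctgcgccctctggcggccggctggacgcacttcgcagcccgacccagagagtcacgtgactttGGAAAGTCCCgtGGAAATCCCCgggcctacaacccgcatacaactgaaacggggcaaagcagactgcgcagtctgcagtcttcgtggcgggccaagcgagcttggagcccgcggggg

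The BIRC3 window held 2 matches, 199 and 135 bases before the start, and the BIRC2 windows held 0. TNFAIP3 held 2 matches, 67 and 55 bases before its start, and NFKBIA held 1, at 81 bases. All of these read as the motif on the strand opposite to the gene. Of the 10 genes 8 had listed windows, 13 in all, and RELB and NFKBIE had none. Matches were found at 6 of the 8 genes. NFKB1 held GGGAATTTCC 49 bases before the first of its 2 listed starts. REL held 2 matches, 1 per strand and overlapping, that begin 47 and 46 bases before its start. Of 3 listed starts of NFKB2, 2 had matches, at 107, 106 and 78 bases before the second start and at 176 and 21 bases before the third, with those at 107 and 106 bases overlapping. RELA held 0 in its 2 windows. A match was held by 5.91% of all 35116 RefSeq windows and by 7.09% of the genes they belong to. Among the genes that rose, BIRC3 thus held the motif in these windows while RELA and BIRC2 did not, and among those that did not pass, NFKB1, NFKB2, REL, NFKBIA and TNFAIP3 held it. A match describes letters in a window and not binding.

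The resistant libraries differed from each other in opposite ways for different genes. RELA, RELB, NFKB2, NFKBIA and NFKBIE were higher in resistant replicate 1, whereas REL, BIRC2, BIRC3, NFKB1 and TNFAIP3 were higher in resistant replicate 2. The level in replicate 2 was 0.568 times that in replicate 1 for RELB, 0.727 times for RELA, 1.27 times for BIRC2 and 1.73 times for REL. A wider gap between the resistant libraries was seen in 2.29% of all tested genes for BIRC3, 5.60% for RELB and 6.05% for REL, but in 77.0% for TNFAIP3. Between the untreated libraries the ratios lay between 0.770 (NFKB1) and 1.40 (REL). The untreated gap was the smaller one for 8 of the 10 genes, and the wider one for NFKB1 and TNFAIP3. The same share was not counted over all tested genes. Across those genes the resistant libraries were also less alike (r = 0.980 in log2 CPM) than the untreated ones (r = 0.985).

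**Figure D3:**
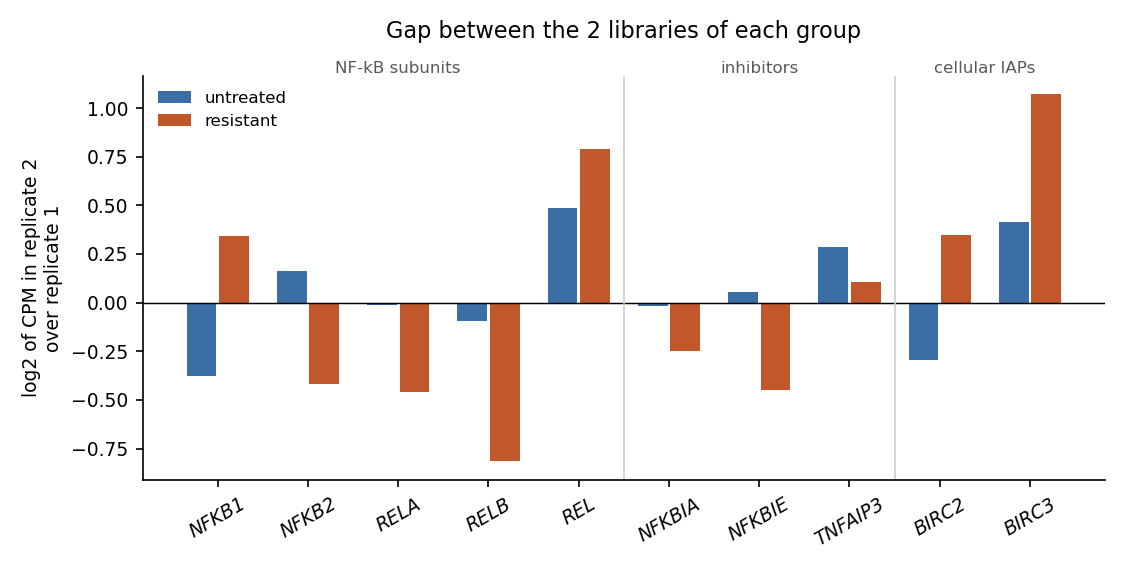
Log2 of the CPM in replicate 2 over replicate 1 for each of the 10 genes, blue for the untreated and orange for the resistant libraries. Bars above 0 mean a higher level in replicate 2. BIRC3 and REL stand highest and RELB lowest among the resistant bars.

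The levels of the genes were compared per kilobase of annotated exon (CPM per kb, over n = 2 libraries). NFKBIA was highest in both groups, at 33.3 ± 0.311 in untreated and 27.9 ± 3.37 CPM per kb in resistant libraries. BIRC2 (8.87 ± 1.27) and RELA (8.81 ± 0.0427) came next in untreated cells and did not differ beyond their spread. NFKB2 (6.84 ± 0.537) and NFKB1 (5.96 ± 1.09) followed, with overlapping libraries. Below them stood NFKBIE (3.87 ± 0.103), RELB (2.15 ± 0.102), BIRC3 (1.56 ± 0.314), REL (1.15 ± 0.272) and TNFAIP3 (0.476 ± 0.0670), of which BIRC3 and REL overlapped. In resistant libraries RELA (18.3 ± 4.08) and BIRC2 (17.2 ± 2.91) were again next to NFKBIA and overlapped each other. RELB stood at 6.53 ± 2.55 CPM per kb, rank 5 in the order after rank 7 in untreated cells, and its libraries were on both sides of those of NFKB1 (6.43 ± 1.07). BIRC3 (4.61 ± 2.32) had passed NFKBIE (3.08 ± 0.673) in the mean, though their libraries overlapped, and REL (1.73 ± 0.655) and TNFAIP3 (0.639 ± 0.0337) were lowest. Exon length here is that of all annotated transcripts of a gene merged, from 2.37 kb for NFKBIA to 13.2 kb for REL.

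RELA, BIRC2 and BIRC3 all lie on chromosome 11, whose 738 tested protein-coding genes had a median log2 fold change of 0.42, with 36.4% of them called higher. Over 12858 protein-coding genes the median was −0.04 and 17.8% were called higher. Of the 20 tested neighbours of RELA in gene order (10 on each side) 9 were higher and 0 lower, with a median of 0.51, beside 1.05 for RELA. Of the 20 neighbours of BIRC2 and BIRC3 7 were higher and 3 lower, with a median of 0.37, beside 0.96 and 1.57. For RELB, on chromosome 19, 7 of the 20 neighbours were higher and 4 lower. The median of the neighbours was 0.33 and that of the chromosome 0.04. NFKBIA lay among lower genes on chromosome 14 (median of its neighbours −0.51, 7 lower and 0 higher), and NFKB2 among lower genes on chromosome 10 (−0.51, 9 lower and 0 higher), though its own value was 0.52. The part of these chromosomal differences in the values of the 10 genes was not tested.

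**Figure D4:**
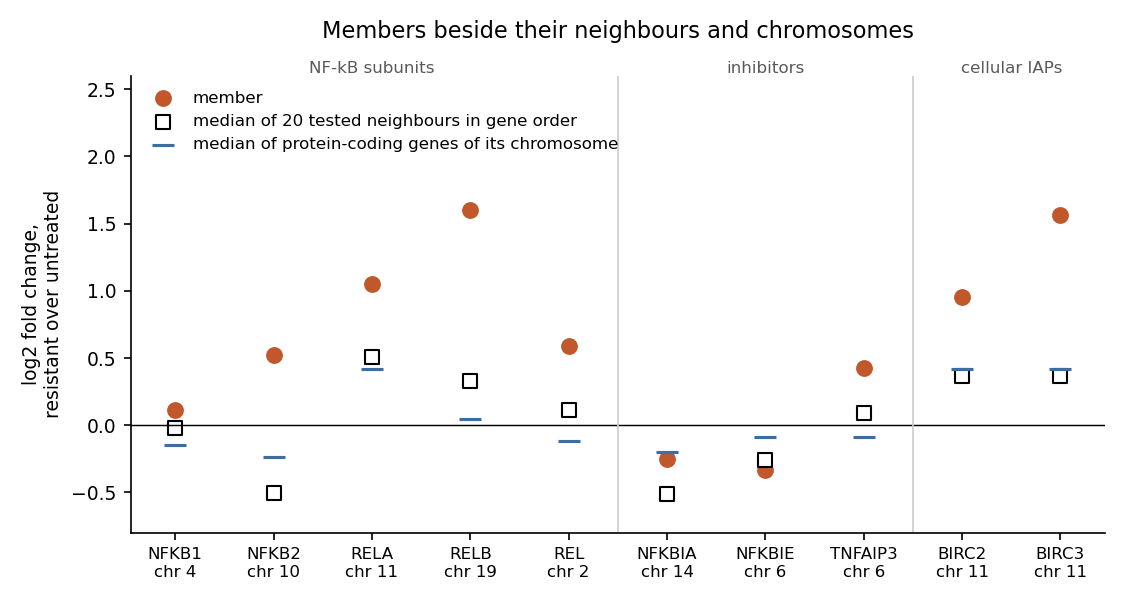
Log2 fold change of each of the 10 genes (orange dots), the median of its 20 tested protein-coding neighbours (open squares) and the median of its chromosome (blue dashes). RELA, BIRC2, BIRC3 and RELB lie above their squares, whose values are 0.51, 0.37, 0.37 and 0.33, and NFKBIE lies just below its own at −0.26.

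The rest of the pathway moved in both directions. Of 156 further genes in 8 lists, 151 were found and 120 tested, of which 23 were higher, 21 lower and 76 did not pass. The 44 called are 36.7% of those tested, beside 34.0% over all genes. Without untreated replicate 1 they were 28 of 124 (22.6%), beside 16.9% over all genes. The median log2 fold change was 0.12, beside −0.01 over all genes. The counts of single lists below stand beside 16.6% called higher and 17.4% called lower over all genes.

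Among other IkB proteins and partners of A20, 3 of 12 tested genes were higher, 0 lower and 9 did not pass (median 0.13). TAX1BP1, an adaptor that A20 uses, rose from 108 ± 4.63 CPM to 226 ± 6.09 CPM (a log2 fold change of 1.07, SE 0.16, edgeR adjusted p = 8.26e-04). ZFAND5, a zinc finger protein of the A20 type, rose by 0.96 in log2 (adjusted p = 0.00141). TNIP2, an A20-binding protein, rose by 0.50 (adjusted p = 0.0435), a call that ended without any 1 of the 4 libraries (adjusted p up to 0.192). TNIP1 (−0.10, adjusted p = 0.639), ITCH (−0.01, adjusted p = 0.951) and OTULIN (−0.22, adjusted p = 0.337) did not pass. TNIP3 had 0 counts in all libraries.

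Of 17 tested IKK and upstream kinase genes 2 were higher, 2 lower and 13 did not pass (median −0.06). RIPK1, the kinase at the tumour necrosis factor receptor that cellular IAP proteins modify, fell from 45.2 ± 7.55 CPM to 23.0 ± 1.04 CPM (a log2 fold change of −0.97, SE 0.19, edgeR adjusted p = 0.00317). CHUK, the IKKa kinase of the slower branch, fell by 0.70 in log2 (adjusted p = 0.0167). Leaving out either untreated library or resistant replicate 2 ended that call (adjusted p up to 0.0699). IRAK2, a kinase below interleukin-1 and Toll-like receptors, was at 3.98 and 4.54 CPM in untreated and at 20.7 and 8.73 CPM in resistant replicates 1 and 2 (1.78, adjusted p = 0.00805), a call lost when either untreated library was dropped (adjusted p up to 0.0999). TAB3, a partner of the kinase TAK1, rose by 0.63 (adjusted p = 0.0165), a call lost when either untreated replicate 1 or resistant replicate 2 was dropped (adjusted p up to 0.108). TAK1 itself (MAP3K7, −0.08), IRAK1 (−0.30) and TAB2 (0.17) did not pass. MAP3K14, the gene of NIK, named after its values were seen, did not pass either (−0.46, SE 0.18, edgeR adjusted p = 0.0721). It was at 62.2 and 47.1 CPM in untreated and at 40.9 and 38.5 CPM in resistant replicates 1 and 2, without overlap.

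Adaptors and ubiquitin ligases had 5 of 20 tested genes higher, 4 lower and 11 not passing (median 0.20). MALT1, a protease and scaffold that carries signals to IKK, rose from 22.6 ± 0.255 CPM to 106 ± 5.16 CPM (a log2 fold change of 2.23, SE 0.16, edgeR adjusted p = 8.99e-06). BCL10, its binding partner, went the other way, from 40.1 ± 6.81 CPM to 23.5 ± 1.02 CPM (−0.77, SE 0.19, adjusted p = 0.0108), and was not called without untreated replicate 1 (adjusted p = 0.116). TRADD, an adaptor of tumour necrosis factor receptor 1, rose by 1.07 (adjusted p = 0.00237), and RBCK1, a subunit of the linear ubiquitin ligase, by 0.93 (adjusted p = 0.00216). RNF31, the catalytic subunit of that ligase, named after its values were seen, went the other way, from 42.2 ± 3.09 CPM to 26.6 ± 3.88 CPM (−0.67, SE 0.18, adjusted p = 0.0178). Its call ended when untreated replicate 1 or resistant replicate 2 was dropped (adjusted p up to 0.116). SHARPIN, a further subunit, did not pass (0.17, adjusted p = 0.512). TRAF5 and TRAF6, further receptor adaptors, had log2 fold changes of 0.90 and 0.98. TRAF5 was not called without untreated replicate 1 (adjusted p = 0.0591), nor TRAF6 without that library or resistant replicate 2 (adjusted p up to 0.0866). UBE2N and UBE2V1, which build the ubiquitin chains that recruit TAK1, fell by 0.86 and by 0.64, the latter not called without untreated replicate 1 (adjusted p = 0.0948). TRAF2 (0.42, adjusted p = 0.110) and TRAF3 (−0.25, adjusted p = 0.226), which bring cellular IAP proteins to NIK, and TRAF4 (0.56, adjusted p = 0.0634) did not pass.

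Of 21 tested receptors 4 were higher, 2 lower and 15 did not pass (median 0.23). IL1R1, the interleukin-1 receptor, rose from 133 ± 8.98 CPM to 254 ± 18.6 CPM (a log2 fold change of 0.93, SE 0.16, edgeR adjusted p = 0.00193). Its co-receptor IL1RAP was low and rose from 0.888 ± 0.0846 CPM to 2.78 ± 0.120 CPM (adjusted p = 0.0144, and 0.0505 without untreated replicate 2). TNFRSF1B, tumour necrosis factor receptor 2, fell from 33.3 ± 3.21 CPM to 11.8 ± 3.15 CPM (a log2 fold change of −1.49, SE 0.23, edgeR adjusted p = 0.00104). TNFRSF10A, a death receptor for TRAIL, fell by 1.01 (adjusted p = 0.00692, and 0.0536 without untreated replicate 1). TNFRSF9 (2.62) and TNFRSF21 (0.80), further receptors of this family, were higher, at no more than 2.14 and 12.7 CPM in any library. Dropping replicate 1 of either group ended the call of TNFRSF21 (adjusted p up to 0.181). TNFRSF1A (0.02, adjusted p = 0.933), TNFRSF10B (0.23, adjusted p = 0.321) and LTBR (0.53, adjusted p = 0.0619) did not pass.

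Most ligands were low. Of 17 only 6 had enough counts for a test, 5 had 0 counts in all libraries, among them IL1A, and 1 of the 6 was called. IL18 fell from 1.09 ± 0.541 CPM to 0.247 ± 0.139 CPM (edgeR adjusted p = 0.0301). Dropping replicate 2 of either group ended that call (adjusted p up to 0.242), while the log2 fold change stayed between −2.83 and −1.53 whichever library was dropped. TNF, named after its values were seen, was between 0.0271 and 1.10 CPM in the 4 libraries and did not pass (log2 fold change 1.63, SE 1.10, adjusted p = 0.291). TNFSF10, the ligand TRAIL, had the highest CPM of the tested ligands, with a mean of 14.6 ± 8.47 CPM over untreated and of 31.0 ± 5.71 CPM over resistant libraries (1.09, adjusted p = 0.0812). TNFSF15 (0.88, adjusted p = 0.0635) and TNFSF9 (0.67, adjusted p = 0.135) did not pass.

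Known NF-kB targets split, with 9 of 27 tested genes higher, 7 lower and 11 not passing (median 0.21). Of those tested 59.3% were called, beside 34.0% over all genes. Of the 40 targets listed, 38 were found, and some of these had too few counts for a test. Among them ICAM1, VCAM1, IL6, CXCL10, CCL20 and PTGS2, named after their values were seen, had at most 4 counts in any library. CXCL1 and CXCL6, chemokines that attract neutrophils, fell. CXCL1 was at 41.7 and 27.7 CPM in untreated and at 7.52 and 7.82 CPM in resistant replicates 1 and 2 (log2 fold change −2.18, SE 0.24, edgeR adjusted p = 1.56e-04), and CXCL6 fell by 3.68 (adjusted p = 2.75e-04). CXCL8, interleukin-8, named after its values were seen, fell by 2.96 (adjusted p = 5.85e-04). CSF3, the growth factor of granulocytes, gave 302 counts over both untreated libraries against 2 over both resistant ones, 127 times as many by library size (95% counting interval from 35 to 1057). On the other side, CCL2, a chemokine that attracts monocytes, gave 1 count over the untreated and 427 over the resistant libraries, or 506 times as many by library size (95% counting interval from 90.3 to 20030).

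SAA1, an acute-phase protein, rose from 0.0805 ± 0.0373 CPM to 14.0 ± 3.90 CPM (a log2 fold change of 7.38, SE 0.48, edgeR adjusted p = 4.67e-06). CSF1, the growth factor of macrophages, rose from 99.8 ± 20.1 CPM to 272 ± 43.0 CPM (a log2 fold change of 1.44, SE 0.20, edgeR adjusted p = 5.31e-04). SAT1, an enzyme of polyamine breakdown, rose by 2.96 (adjusted p = 8.66e-06), and TNC, the matrix protein tenascin C, by 11.15 (adjusted p = 6.90e-06). CD44 (0.21), PLAU (0.13) and TNFAIP2 (0.37) did not pass. Each of these targets also answers to other transcription factors.

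Beyond BIRC2 and BIRC3, 7 genes of the IAP list were tested, of which 0 were called higher, 2 lower and 5 did not pass (median −0.14). Of those tested 28.6% were called, beside 34.0% over all genes, where 16.6% were called higher. BIRC5, survivin, which also serves in cell division, fell from 158 ± 20.5 CPM to 96.3 ± 8.11 CPM (a log2 fold change of −0.72, SE 0.17, edgeR adjusted p = 0.00833, and up to 0.0766 without untreated replicate 1 or resistant replicate 1). BIRC7 fell at below 1 CPM (adjusted p = 0.0266), a call that ended without either untreated library or resistant replicate 1 (adjusted p up to 0.185). XIAP, which blocks caspases directly, averaged 64.5 ± 0.295 CPM without and 58.3 ± 6.55 CPM with resistance (−0.14, adjusted p = 0.516). BIRC6 (−0.03) and DIABLO (0.16), an antagonist released from mitochondria, did not pass either.

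Among caspases and necroptosis genes 0 of 12 tested were higher, 4 lower and 8 did not pass (median −0.29). The 4 called are 33.3% of those tested, near the 34.0% called over all genes. CASP8, the caspase started by death receptors, fell from 82.6 ± 0.926 CPM to 48.5 ± 8.82 CPM (a log2 fold change of −0.77, SE 0.17, edgeR adjusted p = 0.00682, and 0.0588 without resistant replicate 1). CFLAR, the inhibitor of CASP8 and itself listed as an NF-kB target, fell from 83.2 ± 4.51 CPM to 45.7 ± 6.44 CPM (a log2 fold change of −0.86, SE 0.17, edgeR adjusted p = 0.00320). CYCS, cytochrome c, fell from 204 ± 71.5 CPM to 102 ± 4.09 CPM (adjusted p = 0.00909, and 0.0704 without untreated replicate 1). CASP2 fell by 0.60 (adjusted p = 0.0227, and up to 0.192 without untreated replicate 1 or resistant replicate 1). APAF1 (0.04) and CYLD (0.14) did not pass. RIPK3, the kinase of necroptosis, had 1 count in all 4 libraries together.

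**Figure D5:**
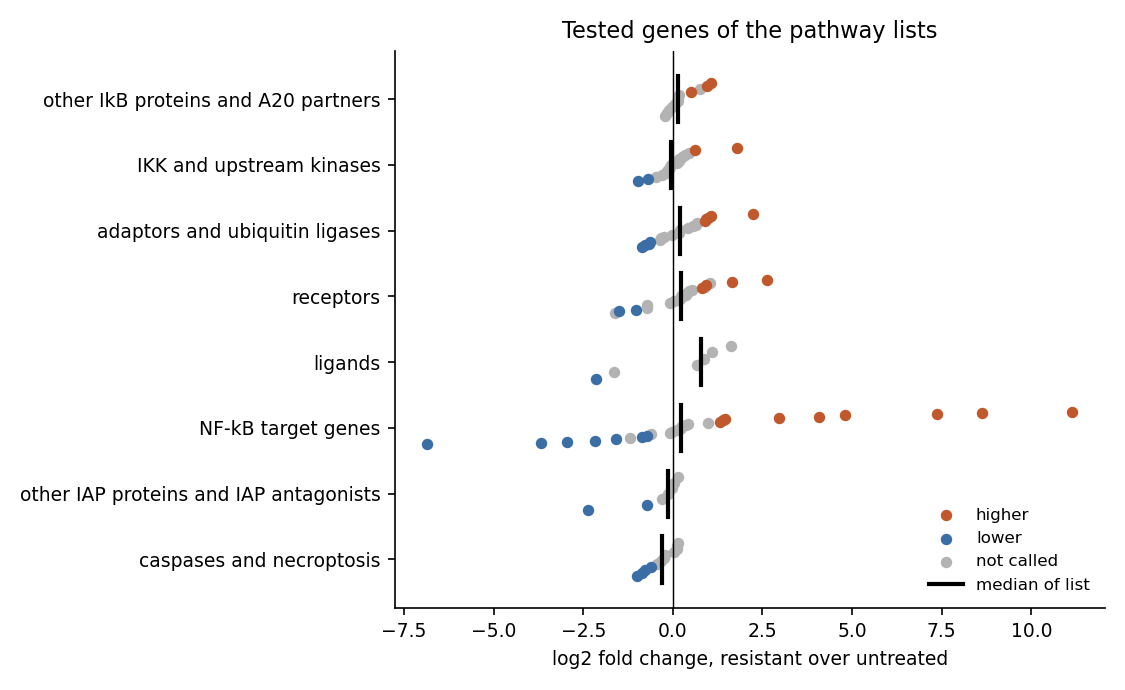
Log2 fold change of resistant over untreated for each tested gene of the 8 pathway lists, 1 dot per gene, orange for called higher, blue for called lower and grey for not called. Black bars are the medians of the lists. The NF-kB targets spread from −6.85 to 11.15, and the 2 lists on cell death at the bottom hold no orange dot. Over all tested genes 16.6% were called higher.

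The values of CYCS, SAA1, UBE2V1, RNF31, ZFAND5 and DIABLO are uncertain, since their expected counts were not all whole. Such counts can arise where reads are divided between genes, and which genes shared these reads was not tested. TRADD, UBE2N, TAX1BP1, LTBR, RIPK1, CHUK, TNC, PLAU, APAF1, TNFRSF10A and TNFRSF10B overlap exons of another gene with counts, mostly on the opposite strand. So do MAP3K14, SHARPIN and ICAM1. The gene opposite MAP3K14, MAP3K14-AS1, had 28 and 63 counts in untreated and 107 and 91 in resistant replicates 1 and 2. The strand setting of the counting is not given in the sources used here.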

How the data were processed

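Gene expression was measured in 4 libraries. The authors deposited 1 table of expected counts per library, with no scaling for depth. Per the submitters' processing notes the tools were STAR 2.7.2b and RSEM 1.3.1 and the build was GRCh37, with no roles given. The annotation release and the strand setting are not given in the sources used here. Groups came from sample titles. Of all values 93.6% were whole, and expected counts were rounded for the tests. Of 57773 IDs, 51996 were matched to a symbol. Of 206 list entries 6 had no matching ID. GENCODE 29, of another build, gave only chromosome, gene order, class, exon length and overlaps.

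Genes were filtered with filterByExpr, scaled with TMM (factors 0.962 to 1.05) and tested in edgeR 4.0.16 (R 4.3.3) with robust quasi-likelihood fits, without the replicate number. The SE is the size of the log2 fold change over the square root of its F value. Alternatives were other scalings, filters, tools (DESeq2 1.42.0, limma 3.58.1) and thresholds, a replicate block and each library left out. The genes and lists were chosen with earlier results of these data known. Beyond the 10 genes, each list contributed at most 8 called genes, taken by lowest adjusted p, and at most 3 others, taken by highest CPM, and any further gene named was chosen after its values were seen. Some genes that these rules or the marker lists hold are not reported here. Counting intervals are exact binomial and cover counting error only. In simulated counts for this comparison 200 of 15848 genes were changed. There 0% of 1.5-fold changes were found, 28% of 2-fold ones, 98% of 4-fold ones and 96% of 8-fold ones. Among the 113 calls 2 were unchanged genes. Far fewer genes were changed there than the 5463 called in the data, so these shares do not describe the fit of the real counts.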

Additional observations from a re-analysis of the deposited data

How the results depend on the processing

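Of 130 values of the 10 genes under alternatives (13 per gene), 119 kept their direction and their side of the threshold, 6 newly passed, 3 no longer passed and 2 reversed. RELA, RELB and BIRC2 were called in all 13 alternatives. BIRC3 missed a threshold of 0.01 and was lost without either untreated library. The reversals were both of NFKB1, whose log2 fold change lay between −0.077 (without untreated replicate 2) and 0.33 with 1 library left out, and was −0.072 without resistant replicate 2. Of the 10 genes, between 3 and 5 were called with 1 library left out, 5 with RLE scaling, 6 without a filter, 5 with the stricter filter of 1 CPM in 2 libraries, 3 at a threshold of 0.01 and 4 under the other settings. Over all genes 5463 were called, 2832 at a threshold of 0.01, and between 2832 (without untreated replicate 1) and 5041 with 1 library left out. Of the further pathway genes 44 were called, and between 28 and 47 with 1 library left out, the lowest without untreated replicate 1. With the replicate number as a block, 5275 genes, 4 of the 10 genes and 50 further pathway genes were called, and the call of none of the 10 changed. Libraries that share a number did not deviate together (r = −0.06 across genes), and no label ties the numbers to a shared culture. When a library is left out, the lone library of its group is assumed to vary like those of the other group. With 2 libraries per group, a gene that did not pass may still differ. The simulation cannot say how often. There 28% of 2-fold changes were called, but far fewer genes were changed than were called in the data.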
